A study of Mus musculus with 10 samples.

Results

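The ligands of the tumour necrosis factor (TNF) superfamily and their receptors were described in the infrarenal aorta of mice 7 days after infusion of porcine pancreatic elastase (PPE) or saline. Members were taken by name, as every gene on the array called Tnfsf or Tnfrsf with a number, together with Tnf, Lta, Ltb, Ltbr, Fas, Fasl, Cd40, Cd40lg, Cd70 and Cd27. This gave 40 of the 35527 gene names on the array, read by 51 probes, with 16 ligands and 24 receptors. All mice were male C57BL/6J animals aged 10 weeks. The aorta of the PPE group was filled for 5 min at 100 mmHg with saline holding type I elastase at 1.5 U per mL, which digests elastin and leads to an abdominal aortic aneurysm, whereas the sham group received saline alone at the same pressure. There were 5 mice per group and 1 array per mouse, with no pooling. Per the study's methods some arrays were left out by its authors for poor hybridization or as outliers, and whether any of them belonged to these groups is not stated there.

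TNF ligands are mostly made as trimers in the cell membrane, from which several can be cut loose, and they act by drawing receptors of the matching family together on the surface of another cell. Receptors that carry a death domain can start caspase-driven cell death, while most others bind TRAF adaptor proteins and turn on NF-kappaB. Tnf itself is a main product of activated macrophages and T cells, and many other ligands carry signals between lymphocytes, antigen-presenting cells, stroma and bone.

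Every array held aortic RNA in the red channel against a reference RNA pooled from mouse cell lines in the green channel. Levels below are log2 ratios of aorta over reference, listed for arrays 1 to 5 of each group, and a difference is the PPE mean minus the sham mean on that scale, with its standard error (SE) from limma. A ratio of 1 probe cannot be set against that of another probe. A gene was called at an adjusted p under 0.01 over the 22520 genes tested, which were those whose aortic signal stood well above background on 5 or more of the 10 arrays. Between 37.6% (sham 5) and 65.8% (PPE 1) of spots were above background in red, so the dim members were read less surely on some arrays than on others. Sham 1, PPE 1 and PPE 2 shared slide 1, which had a scan day of its own, and sham 2 and 3 shared slide 2 with PPE 3 and 4. Sham 4, sham 5 and PPE 5 were each alone on a slide among these arrays. A fit with slide as a fixed block therefore draws no comparison from them. Sham 3 was the highest sham array in B cell and T cell genes. Its mean ratio over 6 B cell markers was 0.92, against -0.28 to -0.025 on the other sham arrays. Its mean over 10 T cell markers was 0.11, against -1.04 to -0.57. In natural killer cell markers it was not the highest, at 0.45 against 0.11 to 0.69. PPE 2 was the highest PPE array in the same B cell score, at 1.86 against -0.40 to 0.23.

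Across the superfamilies, 20 members were higher in PPE and 1, Tnfrsf12a, was lower. The largest increases were those of the second TNF receptor Tnfrsf1b, the antigen-presenting cell receptor Cd40 and the lymphotoxin ligand Ltb. Of the 40 members, 35 were bright enough to be tested, and Cd40lg, Cd70, Tnfrsf8, Tnfsf4 and Tnfsf18 were not. The 20 members called higher made up 57.1% of the 35 tested and 50% of all 40, beside 13.9% of all genes tested. In the other direction, 9.96% of all genes were lower. Of the tested members, 19 were higher on each PPE array than on any sham array (15% of all genes) and 1 was lower on each PPE array (10.5% of all genes). A change of more than 2-fold upwards was called in 17 members, beside 7.89% of all genes. The median difference was 0.83 over the tested members and 0.02 over all genes tested. A member seen only where it was high had to differ to enter the test. There were 6 tested members above background on at most 2 sham arrays (Cd27, Fasl, Lta, Tnf, Tnfsf11 and Tnfsf8), of which 4 were called higher. Tnfsf8 was above background on PPE arrays alone. For Fasl, Tnf and Tnfsf11, each above background on all 5 PPE arrays, those arrays sufficed to enter the test too. The p-values of these called members are therefore weaker support than those of members seen on every array. Among the 19 members above background on all 10 arrays, 11 were higher and 1 was lower, beside 15.5% and 13% of the 15213 genes so detected. Of the ligands, 10 of the 12 tested were higher and none was lower, with a median difference of 1.50, while of the receptors 10 of the 23 tested were higher and 1 was lower, with a median of 0.60. This difference between ligands and receptors was not tested.

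The aorta was profiled whole, so more cells of a type and more RNA per cell cannot be told apart for any of these genes. Markers of several blood cell types moved in the same direction as the members. Of the markers tested, 8 of 9 macrophage genes were higher in PPE, with a mean ratio over the list of 0.41 to 0.90 on the sham arrays and 2.48 to 3.44 on the PPE arrays. Higher as well were 7 of 8 neutrophil genes (0.45 to 0.59 against 2.69 to 4.18), 7 of 10 T cell genes (-1.04 to 0.11 against 0.73 to 1.83), 5 of 7 natural killer cell genes (0.11 to 0.69 against 1.87 to 3.61) and 4 of 7 dendritic cell genes (0.55 to 0.87 against 1.70 to 2.92). Over all genes tested, 13.9% were higher and 9.96% were lower. The neutrophil genes Ngp and Mmp8 and the natural killer cell gene Eomes, counted here, entered the test through the PPE arrays alone. So did Ncr1, a natural killer cell gene that was not called, and these genes are part of the mean ratios. For the neutrophil genes Cxcr2 and Ltf, above background on 1 sham array and all 5 PPE arrays, the PPE arrays sufficed too. None of the 6 B cell genes tested was called, and their mean ratio overlapped between the groups (-0.28 to 0.92 against -0.40 to 1.86), with Pax5 and Blk too dim to test. The defining genes of the vessel wall were present, and 6 of 8 smooth muscle genes were lower in PPE (3.22 to 4.38 against 1.62 to 2.85), 3 of 7 fibroblast genes were higher (3.13 to 3.70 against 3.65 to 4.74), none of 8 endothelial genes was called (2.35 to 3.29 against 2.48 to 3.47), and 1 of 7 adipocyte genes was lower (4.67 to 5.73 against 3.72 to 5.24). The part of these cell types in the results on the superfamilies was not tested.

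**Figure D1:**
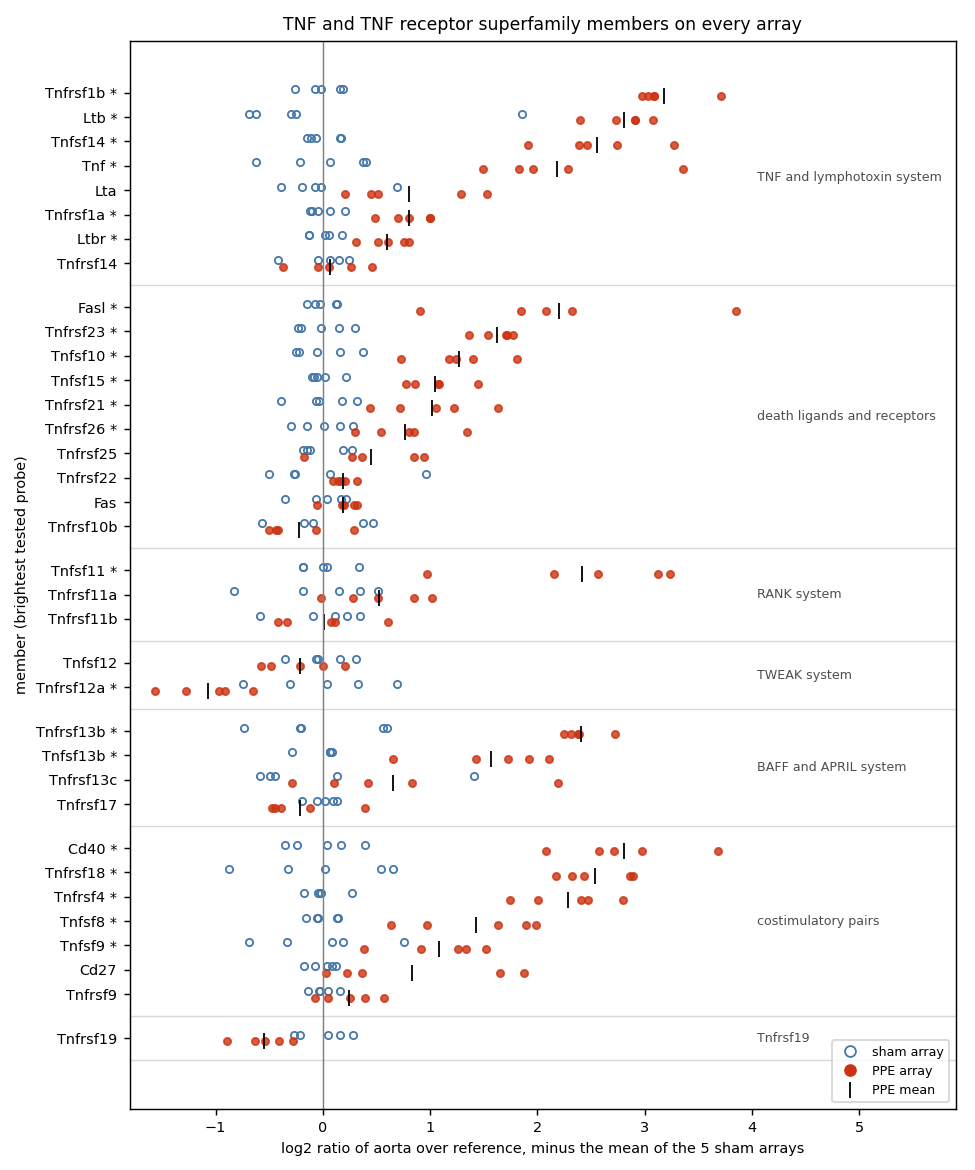
Level of each tested member on every array, as the log2 ratio of aorta over reference minus the mean of the 5 sham arrays (horizontal axis), with members grouped by role (vertical axis). Open circles are sham arrays, filled circles PPE arrays, the bar is the PPE mean and an asterisk marks a call at an adjusted p under 0.01. The PPE arrays lie to the right of the sham arrays without overlap for 19 members, from Tnfrsf1b at 3.18 down to Ltbr at 0.60. They lie to the left without overlap for Tnfrsf19, and to the left with overlap for Tnfrsf12a, the only member called lower.

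In the TNF and lymphotoxin system, 6 of 8 members were higher in PPE and none was lower. Tnfrsf1b, the TNF receptor without a death domain, found mostly on immune and endothelial cells, changed most. Its probe (chr4:144802359-144802418, mm9) stood at -0.41, -0.61, -0.18, -0.36 and -0.15 on the sham arrays and at 3.37, 2.63, 2.75, 2.69 and 2.75 on the PPE arrays. The sham arrays lay close together, PPE 1 was above the other PPE arrays, and the groups were far apart. The difference was 3.18 (SE 0.15, adjusted p = 2.70e-07), or 9.04-fold. Tnfrsf1a, the death domain receptor that most cell types carry, rose less. It read 0.61, 0.36, 0.31, 0.29 and 0.47 on the sham arrays and 1.41, 1.11, 1.22, 1.41 and 0.90 on the PPE arrays (chr6:125312376-125312435). PPE 5 was the lowest PPE array and still stood above sham 1, the highest sham array. The difference was 0.80 (SE 0.12, adjusted p = 0.000417), or 1.74-fold. A further probe of Tnfrsf1a, 5′ of the first, gave a smaller difference of 0.42 (adjusted p = 0.0347 over all 55681 probes).

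Tnf, the ligand of both receptors, was dim in sham aortas and above background on 2 of the 5 sham arrays and on all 5 PPE arrays. Its 10 spots (chr17:35336795-35336854) averaged -1.76, -1.08, -0.74, -1.36 and -0.77 in sham and 2.21, 0.69, 0.82, 1.14 and 0.35 in PPE. PPE 1 was the highest and PPE 5 the lowest PPE array, and the groups did not overlap. The difference was 2.19 (SE 0.32, adjusted p = 0.000292). Its size depended on the offset added to the dim sham signals, with 2.86 at an offset of 10 and 4.15 for Tnf on the scanner's own log ratios. Lta, which encodes the soluble lymphotoxin that shares the TNF receptors, lies next to Tnf and Ltb on chromosome 17. It read -0.67, -0.35, 0.41, -0.47 and -0.30 in sham and 1.01, 1.25, 0.18, 0.24 and -0.069 in PPE (chr17:35340275-35340334). PPE 1 and PPE 2, both on slide 1, were above all others, and sham 3 was above 3 of the PPE arrays. The difference of 0.80 (SE 0.28, adjusted p = 0.0435) was not called, and without sham 3 it was 0.97 (adjusted p = 0.0161).

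Ltb encodes the membrane anchor that joins lymphotoxin alpha in the heterotrimer sensed by Ltbr. It was detected on every array, at -1.60, -1.27, 0.88, -1.67 and -1.23 in sham and 2.10, 1.94, 1.93, 1.42 and 1.76 in PPE (chr17:35333097-35333156). Sham 3 was far above the other sham arrays but below each PPE array. The difference was 2.81 (SE 0.42, adjusted p = 0.000302), or 6.99-fold, and 3.27 (adjusted p = 1.12e-06) without sham 3. Tnfsf14, known as LIGHT, a T cell ligand of Ltbr and Tnfrsf14, stood at -0.090, -0.055, 0.22, -0.0020 and 0.23 in sham, where 3 of 5 arrays were above background, and at 3.33, 2.44, 2.52, 2.80 and 1.97 in PPE (chr17:57329192-57329251). PPE 1 was the highest array and PPE 5 the lowest of its group, with a wide gap to sham. The difference was 2.55 (SE 0.21, adjusted p = 5.06e-06), or 5.87-fold.

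The shared receptor Ltbr, carried by stromal and myeloid cells, had the smallest called difference among the members. It read 0.24, 0.12, -0.070, -0.062 and 0.085 in sham and 0.58, 0.38, 0.87, 0.82 and 0.67 in PPE (chr6:125256614-125256673). PPE 2 was the lowest PPE array and sham 1 the highest sham array, both on slide 1, and the groups stayed apart. The difference was 0.60 (SE 0.12, adjusted p = 0.00225), or 1.51-fold. With slide as a fixed block the adjusted p was 0.0189. Tnfrsf14, the other LIGHT receptor, was not called, with a difference of 0.069 (adjusted p = 0.80) and a 95% interval of -0.31 to 0.45.

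The Tnfrsf14 value hung on the choice of probe, and both probes are shown for that reason. The brighter probe (chr4:154300709-154300768, minus strand) is printed whole and the dimmer one (chr4:154296319-154296378, minus strand) by its first 30 of 60 bases, both 5′ to 3′ and with no letter in capitals.
Tnfrsf14 brighter probe: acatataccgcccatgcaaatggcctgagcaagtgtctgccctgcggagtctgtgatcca
Tnfrsf14 dimmer probe: ccgaggaggagacagcctccaactgaacaa
The dimmer probe was above background on none of the 5 sham and all 5 PPE arrays. It read -0.61, -0.23, -0.24, -0.45 and -0.30 in sham and 1.28, 0.34, 0.43, 0.60 and 0.39 in PPE, without overlap. Its signal was at least 1.86-fold higher in PPE (adjusted p = 0.00233 over all 55681 probes, with no filter), as a bound set by the lowest signal that counts as above background. The sham values behind that p are background readings. The brighter probe overlapped between the groups on the same arrays.

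Of the 40 members, 30 had a promoter window in RefSeq (GRCm38.p6, from 250 bases before to 50 bases after a gene start), and Cd40, Cd40lg, Cd70, Tnfrsf10b, Tnfrsf11b, Tnfrsf22, Tnfrsf26, Tnfsf12, Tnfsf4 and Tnfsf9 had none in the table used. Both strands were searched for the NF-kappaB consensus, for TGANTCA, the AP-1 element, and for TTCNNNGAA, the STAT element. No match of a motif overlapped a match of another in these windows. A member counts once if any of its windows matched, and the 30 members had 34 windows. Shares of members and of windows are thus in unlike units, and their difference was not tested. The NF-kappaB consensus was found in 4.51% of all 32851 windows and in 3 members, or 10% of the 30 (Ltb, Tnfrsf8 and Tnfrsf9). TGANTCA was in 7.81% of windows and in 5 members, or 16.7% (Fas, Tnfrsf8, Tnfrsf9, Tnfsf13b and Tnfsf14). TTCNNNGAA was in 8.3% of windows and in 9 members, or 30% (Fas, Lta, Ltb, Tnfrsf18, Tnfrsf19, Tnfrsf1a, Tnfrsf1b, Tnfrsf25 and Tnfrsf9). Members with a match were thus found among those called higher and among those not called. A match of letters does not show that a factor binds there.

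Upstream bases of 3 members that were higher in PPE are shown, with the matches in capitals and read 5′ to 3′ on the strand of the gene. They are Ltb (chr17:35194387-35194466, plus strand), with the NF-kappaB consensus on its other strand, Tnfrsf1b (chr4:145247011-145247090, minus strand), with TTCNNNGAA, and Tnfsf14 (chr17:57194302-57194381, minus strand), with TGANTCA.
Ltb, from 120 to 41 bases before the start: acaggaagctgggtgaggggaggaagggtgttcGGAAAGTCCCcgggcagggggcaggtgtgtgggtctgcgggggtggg
Tnfrsf1b, from 220 to 141 bases before the start: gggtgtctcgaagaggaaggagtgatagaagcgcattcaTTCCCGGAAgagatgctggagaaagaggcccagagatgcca
Tnfsf14, from 200 to 121 bases before the start: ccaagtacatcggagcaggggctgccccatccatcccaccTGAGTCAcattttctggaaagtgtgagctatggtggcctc

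Among the death ligands and receptors, 6 of 10 members were higher in PPE and none was lower. The 3 ligands all rose, whereas the receptors Fas, Tnfrsf10b and Tnfrsf25, which signal death for them, were not called. Fasl, the ligand by which cytotoxic T cells and natural killer cells kill, was above background on 2 sham arrays and all 5 PPE arrays. It read 0.32, 0.041, 0.16, 0.31 and 0.12 in sham and 4.04, 2.51, 2.03, 2.27 and 1.09 in PPE (chr1:163711056-163711115). PPE 1 was far above and PPE 5 well below the other PPE arrays, and both exceeded all sham arrays. The difference was 2.20 (SE 0.41, adjusted p = 0.00146), and with most sham values near background its size moved to 3.19 at an offset of 10 and 4.20 on the scanner's log ratios. Fas itself was detected on every array and differed by 0.18 (adjusted p = 0.309), with a 95% interval of -0.099 to 0.47.

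Tnfsf10, the ligand TRAIL, was detected on every array. It stood at 2.51, 2.29, 1.89, 2.08 and 1.91 in sham and 3.95, 3.54, 3.38, 2.87 and 3.31 in PPE (chr3:27238508-27238567). PPE 4, the lowest PPE array, lay above sham 1, the highest sham array. The difference was 1.27 (SE 0.19, adjusted p = 0.000362), or 2.42-fold. Its death receptor Tnfrsf10b was detected on every array too and differed by -0.23 (adjusted p = 0.473), with an interval of -0.71 to 0.25. Tnfsf15, known as TL1A, a ligand made by endothelial and myeloid cells, read -0.20, -0.25, -0.13, -0.23 and 0.066 in sham and 1.30, 0.93, 0.71, 0.63 and 0.93 in PPE (chr4:63388134-63388193). Each group was narrow and the gap between them was wide. The difference was 1.05 (SE 0.14, adjusted p = 0.000113), or 2.07-fold. The TL1A receptor Tnfrsf25 overlapped between the groups and differed by 0.45 (adjusted p = 0.115).

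Tnfrsf21, a death domain receptor with no TNF-family ligand of its own, was also higher. It read -0.13, -0.34, 0.015, -0.37 and -0.69 in sham and 1.33, 0.91, 0.42, 0.75 and 0.14 in PPE (chr17:43225326-43225385). PPE 5 was the lowest PPE array, just above sham 3, the highest sham array. The difference was 1.01 (SE 0.22, adjusted p = 0.00323), or 2.02-fold, and on the scanner's own log ratios it was 1.58 with an adjusted p of 0.0299. Tnfrsf22, Tnfrsf23 and Tnfrsf26 are close relatives that lie together on mouse chromosome 7, the former pair being decoy receptors of TRAIL, and their probes may share RNA. Tnfrsf23 read -0.67, -0.32, -0.70, -0.49 and -0.17 in sham and 1.30, 0.89, 1.23, 1.25 and 1.07 in PPE (chr7:150851714-150851773). The groups were narrow and far apart, and the difference was 1.62 (SE 0.13, adjusted p = 4.57e-06), or 3.07-fold. Its other probe was above background on no sham array and 2 PPE arrays, too few to be tested. No bound is given for it, since most of its PPE readings were not above background either. Tnfrsf26 read -0.60, -0.30, -0.15, -0.46 and -0.026 in sham and 1.04, 0.50, 0.23, 0.54 and -0.0070 in PPE (chr7:150793990-150794049). PPE 5 lay just above sham 5, both arrays with few spots above background for their group. The difference of 0.77 (SE 0.19, adjusted p = 0.00784) was close to the threshold. It lost its call when any array but PPE 5 or sham 5 was left out, and with slide (adjusted p = 0.0117) or scan day (adjusted p = 0.0114) as a fixed block. Tnfrsf22 was not called, at 0.19 (adjusted p = 0.592), and its highest level was on sham 3 (0.99).

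**Figure D2:**
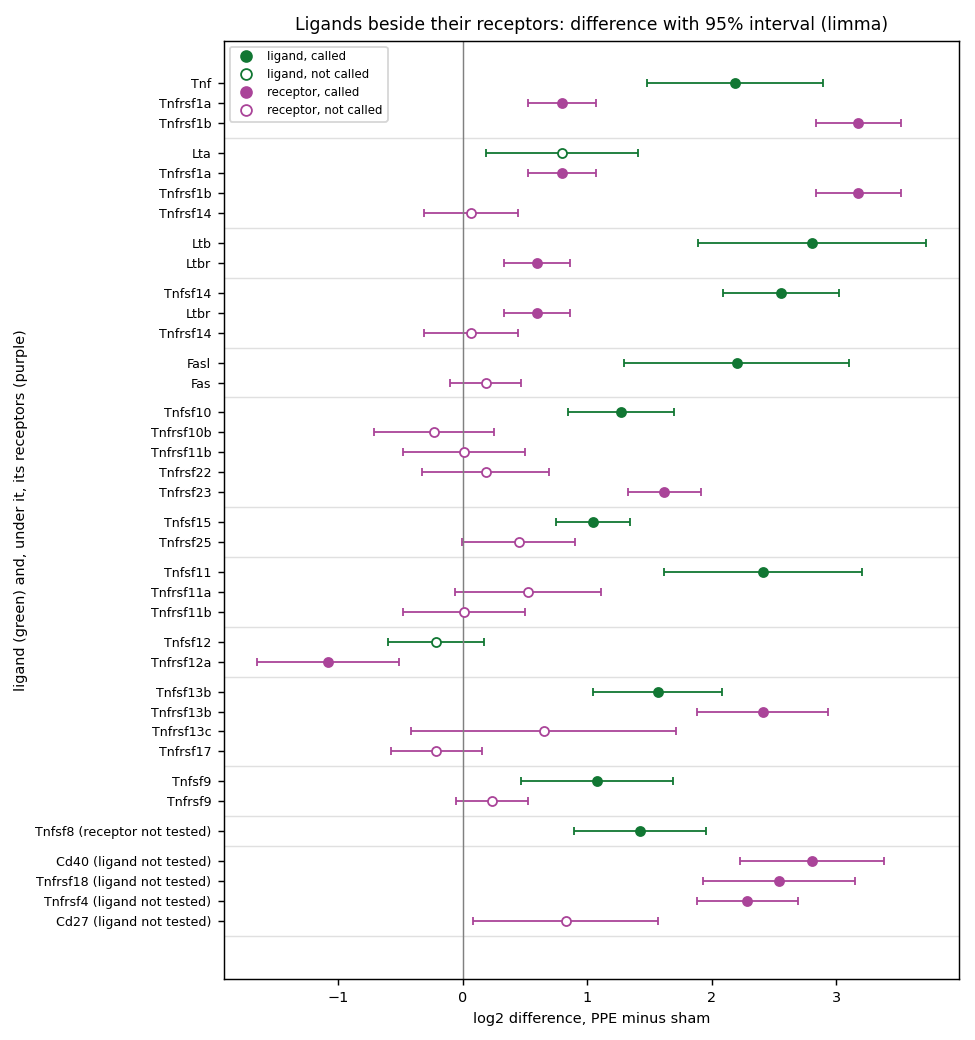
Difference between PPE and sham (horizontal axis, log2, with the 95% interval from limma) for ligands in green and, under each, its receptors in purple (vertical axis). Filled points were called at an adjusted p under 0.01 and receptors shared by several ligands are repeated. For Fasl, Tnfsf15 and Tnfsf11 the ligand was called and the receptors drawn under it were not. Under Tnfsf10 only the decoy Tnfrsf23 (1.62) was called, and under Tnfsf9 the receptor Tnfrsf9 is drawn on its brightest probe, while its second probe was called (1.07).

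In the RANK system, the ligand Tnfsf11 was higher in PPE and its receptors were not called. Tnfsf11, known as RANKL, drives the formation of bone-resorbing osteoclasts and is made by T cells and stroma. It was above background on 1 sham array and all 5 PPE arrays, at -0.30, -0.079, 0.22, -0.30 and -0.12 in sham and 3.12, 2.04, 2.45, 3.01 and 0.86 in PPE (chr14:78677444-78677503). PPE 5 was far below the other PPE arrays but above all sham arrays. The difference was 2.41 (SE 0.36, adjusted p = 0.000326), against sham values that mostly lay in the background, and was 3.23 at an offset of 10 and 4.44 on the scanner's log ratios. Its signalling receptor Tnfrsf11a, known as RANK and found on myeloid cells, was detected on every array. It read 2.35, 1.99, 1.01, 2.18 and 1.65 in sham and 2.12, 2.68, 2.35, 1.81 and 2.85 in PPE, with 3 sham arrays above the lowest PPE array, and differed by 0.53 (adjusted p = 0.154). Tnfrsf11b, known as osteoprotegerin, the soluble decoy that blocks RANKL, read 1.82, 1.71, 1.0, 1.94 and 1.50 in sham and 1.71, 2.20, 1.67, 1.26 and 1.17 in PPE. The groups lay over each other, with a difference of 0.0094 (adjusted p = 0.979) and a 95% interval of -0.48 to 0.50, whose sign changed with the processing.

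The TWEAK system held the only member that was lower in PPE. Tnfrsf12a, known as Fn14, is a small receptor that injured tissue and growing smooth muscle cells make. It was detected on every array, at 0.13, -0.24, -0.53, -0.88 and -1.31 in sham and -1.54, -1.85, -1.48, -1.22 and -2.13 in PPE (chr17:23812746-23812805). The sham arrays were widely spread, and sham 5 lay below PPE 4, so the groups overlapped. The difference was -1.08 (SE 0.26, adjusted p = 0.00708), and the level in PPE was 0.474 of that in sham. Leaving out any array but sham 5 or PPE 4 ended the call, with adjusted p between 0.0106 and 0.0212. The 6 smooth muscle genes above fell in the same samples, and a link between them and Tnfrsf12a was not tested. Its ligand Tnfsf12, known as TWEAK, was detected on every array and was not called, at -0.21 (adjusted p = 0.389) with an interval of -0.60 to 0.17.

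In the BAFF and APRIL system, which keeps B cells and plasma cells alive, the ligand Tnfsf13b was higher in PPE. Tnfsf13b, known as BAFF and made by myeloid and stromal cells, was detected on every array. It read 0.52, 0.17, 0.51, 0.52 and 0.54 in sham and 2.56, 2.18, 1.88, 2.37 and 1.11 in PPE (chr8:10035561-10035620). In sham, sham 2 lay below the other 4 arrays, which were nearly level, and PPE 5 was the lowest PPE array. The difference was 1.57 (SE 0.24, adjusted p = 0.000336), or 2.96-fold. Of its receptors, Tnfrsf13c, the main BAFF receptor of B cells, was not called. It read 0.45, -0.27, 1.73, -0.13 and -0.18 in sham and 0.74, 2.51, 0.42, 1.15 and 0.031 in PPE. Sham 3 and PPE 2 were the highest arrays of their groups, as they were in the B cell markers, and the difference was 0.65 (adjusted p = 0.340). Without those 2 arrays it was 0.62 (adjusted p = 0.0898). Tnfrsf17, the receptor of plasma cells, was not called either, at -0.21 (adjusted p = 0.374).

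The receptor Tnfrsf13b, known as TACI, was called higher on its brightest probe, but its 3 probes differed. The brightest probe (chr11:60962770-60962829) is listed under the cDNA clone AK004668, and the other probes under the RefSeq transcript NM_021349, chr11:60960405-60960464 and chr11:60954823-60954882, both 5′ of it on the plus strand. They are printed 5′ to 3′ with no letter in capitals, the brightest by its first 30 of 60 bases, because probes of 1 gene name gave different values. Which transcript the brightest probe reads was not settled here, as no annotation of mm9 was used.
Tnfrsf13b brightest probe: cctggagaatatagcctggctccatttgca
Tnfrsf13b middle probe: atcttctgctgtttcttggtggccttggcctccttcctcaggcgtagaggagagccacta
Tnfrsf13b 5′ probe: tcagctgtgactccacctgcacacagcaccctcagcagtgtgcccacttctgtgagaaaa
The brightest probe read -2.37, -1.86, -1.04, -1.85 and -1.08 in sham and 0.73, 0.75, 0.67, 0.60 and 1.08 in PPE. The PPE arrays were nearly level and far above the spread sham arrays, with a difference of 2.41 (SE 0.24, adjusted p = 1.71e-05), or 5.31-fold. The middle probe, also above background on all 10 arrays, read -0.99, -0.67, -0.61, -0.84 and -0.45 in sham and -0.73, -0.40, -0.42, -0.57 and -0.27 in PPE. Its groups overlapped, with a difference of 0.23 (adjusted p = 0.241 over all probes). The 5′ probe, above background on 3 arrays of each group, differed by -0.37 (adjusted p = 0.209). The mean of the 3 probes differed by 0.76 (adjusted p = 0.0043), and the larger value printed for Tnfrsf13b is that of 1 probe.

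**Figure D3:**
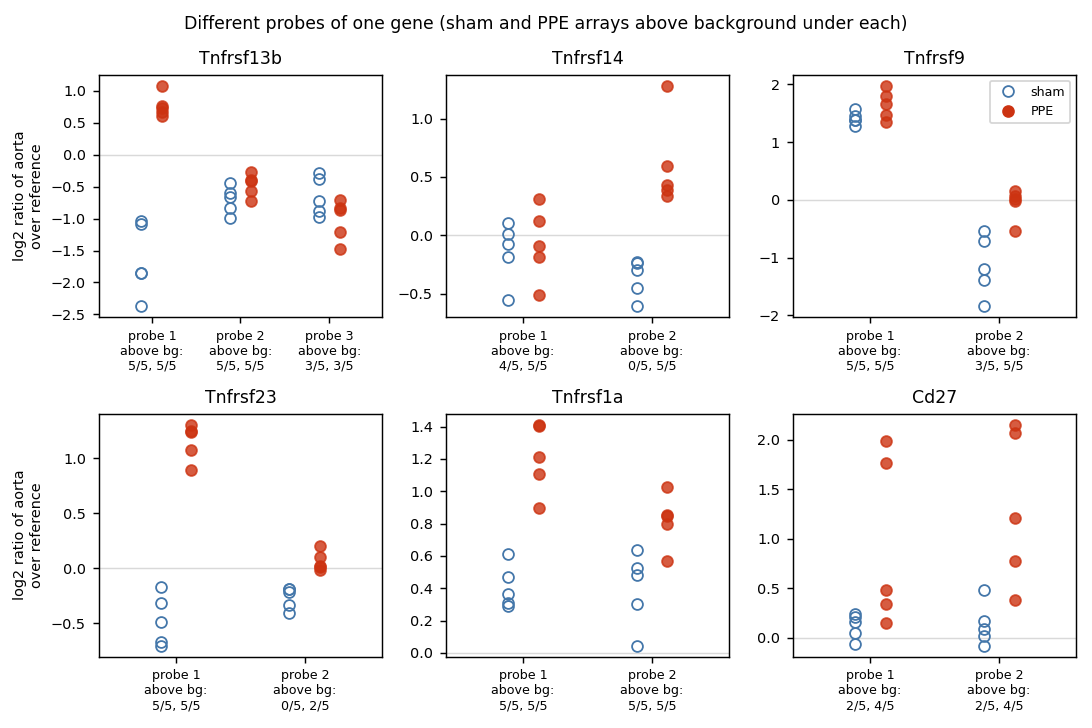
Level on every array (vertical axis, log2 ratio of aorta over reference) for each probe of 6 members with several probes (horizontal axis, with the number of sham and PPE arrays above background). Probe 1 is the probe used for the gene. For Tnfrsf13b, open sham and filled PPE points part at probe 1 and overlap at probes 2 and 3, and for Tnfrsf14 and Tnfrsf9 they overlap at probe 1 and part at probe 2, at Tnfrsf9 by a very small gap.

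The costimulatory pairs, by which T cells and antigen-presenting cells activate each other, held 12 members, of which 7 were tested and 5 were higher in PPE. For Cd40, Tnfrsf4 and Tnfrsf18 the receptor was higher while its ligand was too dim to test. Cd40, the receptor by which T cells activate B cells, macrophages and dendritic cells, was detected on every array. It read 0.79, 0.38, 1.02, 0.27 and 0.66 in sham and 4.31, 3.60, 3.34, 3.20 and 2.70 in PPE (chr2:164897085-164897144). PPE 1 was the highest and PPE 5 the lowest PPE array, with a wide gap to sham 3, the highest sham array. The difference was 2.81 (SE 0.26, adjusted p = 1.14e-05), or 6.99-fold. Its ligand Cd40lg, made by activated helper T cells, was above background on no array.

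Tnfrsf18, known as GITR, and Tnfrsf4, known as OX40, are receptors of regulatory and activated T cells. Tnfrsf18 read -3.43, -2.54, -1.90, -2.88 and -2.01 in sham and 0.34, -0.23, -0.12, -0.38 and 0.31 in PPE (chr4:155402941-155403000). Sham 1 was the lowest array and PPE 1 the highest, both on slide 1, and the groups were far apart. The difference was 2.54 (SE 0.28, adjusted p = 3.56e-05), or 5.81-fold. Tnfrsf4 read -0.29, -0.43, 0.024, -0.26 and -0.27 in sham and 2.55, 2.15, 1.76, 1.50 and 2.23 in PPE (chr4:155390639-155390698). The sham arrays were close together and all PPE arrays lay far above them, with a difference of 2.28 (SE 0.18, adjusted p = 4.20e-06), or 4.87-fold. The ligand of Tnfrsf4, Tnfsf4, was above background on no sham array and 2 PPE arrays, and that of Tnfrsf18, Tnfsf18, on no sham array and 1 PPE array. Of the 10 T cell markers, 7 were higher in the same samples, among them Cd3d (2.97, adjusted p = 0.000304), Cd3g (2.36, adjusted p = 0.000211) and Lck (2.73, adjusted p = 0.000116). The other 3, Cd3e (0.94, adjusted p = 0.0122), Cd4 (0.76, adjusted p = 0.0202) and Cd8a (1.76, adjusted p = 0.0109), were not called.

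Tnfsf8, known as CD30 ligand and made by activated T cells and myeloid cells, was above background on none of the 5 sham arrays and on all 5 PPE arrays. Its ratios were -0.095, 0.20, 0.020, 0.011 and 0.19 in sham and 1.70, 2.05, 1.04, 0.70 and 1.96 in PPE (chr4:63493871-63493930). The sham values were not well above background, and PPE 4 was the lowest PPE array. The signal was at least 2.19-fold higher in PPE (adjusted p = 0.000761). Having passed the filter only through PPE, Tnfsf8 had to differ, so that p adds little to the bound. Its receptor Tnfrsf8 was above background on no array. Tnfsf9, the ligand of Tnfrsf9 on antigen-presenting cells, read -2.93, -2.06, -2.16, -2.58 and -1.49 in sham and -0.91, -1.86, -0.99, -1.33 and -0.73 in PPE (chr17:57247062-57247121). Sham 5 lay above PPE 2, so the groups overlapped. The difference of 1.08 (SE 0.28, adjusted p = 0.00998) was the closest to the threshold of all called members and lost its call under 11 of the 25 alternatives tried.

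The receptor Tnfrsf9, a marker of activated T cells, was not called on its brightest probe, at 0.24 (adjusted p = 0.190). That probe (chr4:150319582-150319641, plus strand) ends in a run of GT repeats 22 bases long. Of the 55681 probes on the array, 51 held such a run of at least 20 bases. Its last 30 bases are shown with the run in capitals, above those of the second probe (chr4:150319101-150319160, plus strand).
Tnfrsf9 brightest probe: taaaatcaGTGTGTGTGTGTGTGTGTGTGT
Tnfrsf9 second probe: taacatatttgtctttaccttttttaaatc
The brightest probe read 1.38, 1.46, 1.28, 1.38 and 1.57 in sham and 1.46, 1.34, 1.81, 1.98 and 1.67 in PPE, with the groups overlapping. The second probe was above background on 3 sham arrays and all 5 PPE arrays, and read -1.84, -1.19, -0.72, -1.39 and -0.55 in sham and 0.16, -0.54, -0.015, 0.071 and 0.019 in PPE. Its lowest PPE array, PPE 2, stood just above its highest sham array, sham 5, and the difference was 1.07 (adjusted p = 0.00832 over all probes). The mean of both probes was called, at 0.66 (adjusted p = 0.00697).

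Cd27, a receptor of T and B cells, was not called, and on its brighter probe it split the PPE group. Its brighter probe (chr6:125183200-125183259) read -0.061, 0.24, 0.20, 0.16 and 0.047 in sham and 1.99, 1.77, 0.48, 0.34 and 0.14 in PPE. PPE 1 and PPE 2 on slide 1 were high. PPE 3 and PPE 4 lay nearer the sham level but above every sham array, and PPE 5 lay within the sham range. The difference was 0.83 (SE 0.34, adjusted p = 0.0805). On slide 1 PPE minus sham was 1.94 and on slide 2 it was 0.19. The other probe of Cd27 read 0.17, 0.090, 0.48, -0.080 and 0.021 in sham and 2.15, 2.08, 0.77, 1.21 and 0.38 in PPE. There too PPE 3 and PPE 4 lay above every sham array, and PPE 5 lay below sham 3. That probe differed by 1.18 (adjusted p = 0.0256 over all 55681 probes), and the mean of both by 1.005 (adjusted p = 0.0306). The ligand of Cd27, Cd70, on activated lymphocytes and dendritic cells, was above background on no sham array and on 2 PPE arrays, at most at 1.01 on PPE 1. Outside these pairs, Tnfrsf19, an orphan receptor known from stem cells and the nervous system, read -0.051, -0.55, -0.18, -0.28 and -0.60 in sham and -1.23, -0.74, -0.96, -0.87 and -0.61 in PPE. Each PPE array was below each sham array, yet the difference of -0.55 (SE 0.15, adjusted p = 0.0131) missed the threshold.

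**Figure D4:**
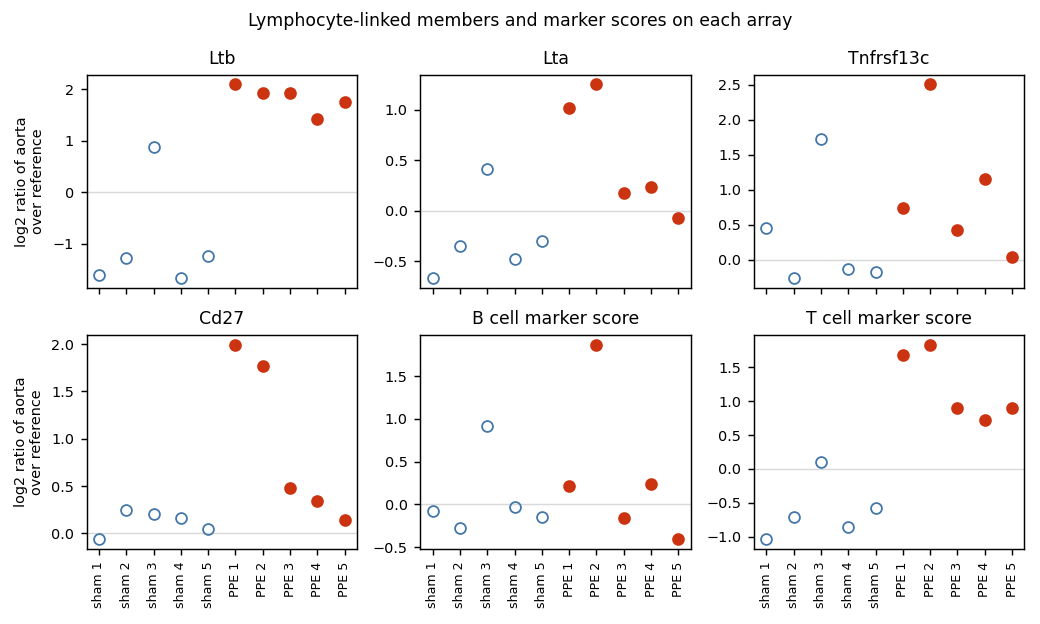
Level on each array (vertical axis, log2 ratio of aorta over reference) of Ltb, Lta, Tnfrsf13c and Cd27 and of the mean ratio over the B cell and the T cell markers, for sham (open) and PPE (filled) arrays 1 to 5. Sham 3 is the highest sham array in Ltb (0.88), Lta, Tnfrsf13c and both marker scores, and PPE 1 and PPE 2 are the highest PPE arrays in Lta, Cd27 and the T cell markers.

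The PPE arrays did not carry the increases evenly. Of the 20 members called higher, PPE 1 was the highest PPE array in 15, and PPE 5 the lowest in 9 and PPE 4 in 7. The same order was not counted over all called genes, so these counts cannot be read as particular to the members. PPE 1 had the most spots above background of all arrays and PPE 5 the fewest of its group. The part of this in the spread of the members was not tested. Within slide 1 and within slide 2, all 20 members called higher and Tnfrsf12a kept their sign. For the 19 higher members whose groups did not overlap this was fixed in advance, so it adds no support. Sham 1 was the only sham array on slide 1. The smallest increase was that of Ltbr on slide 1 (0.23) and of Tnfrsf26 on slide 2 (0.61).

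The genes that carry the signal inside the cell were described from lists of known pathway members. Together 35 of the 60 tested were higher in PPE and 1 was lower. Beside this count and those of the single lists below, 13.9% of all genes tested were higher and 9.96% were lower. Among adaptors and death signalling genes, 12 of 20 were higher and none was lower. The largest changes were those of Traf1, an adaptor induced by NF-kappaB (3.67, adjusted p = 6.74e-07), the necroptosis kinase Ripk3 (2.83, adjusted p = 5.90e-07), the initiator caspase Casp8 (1.59, adjusted p = 4.77e-05) and the ubiquitin ligase Birc3 (1.37, adjusted p = 0.000124). In the NF-kappaB list, 14 of 23 tested were higher and none was lower, and Rel was above background on no array. The coactivator Bcl3 (2.58, adjusted p = 1.25e-06), the inhibitor Nfkbie (2.16, adjusted p = 2.43e-05), the brake Tnfaip3 (2.11, adjusted p = 1.19e-05) and the noncanonical subunit Relb (1.68, adjusted p = 2.04e-05) led it. Several of these are themselves NF-kappaB targets and inhibitors of the pathway. Rela, the main canonical subunit, did not pass the test, at 0.024 (adjusted p = 0.935). It was named after its value was seen.

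Of 7 genes that cut or control the ligands, 3 were higher and 1 was lower. Rhbdf2, which carries the TNF-shedding protease to the surface (1.34, adjusted p = 2.70e-05), Adam10, a sheddase (1.19, adjusted p = 4.70e-05), and Furin, a proprotein convertase that cuts several ligands (0.76, adjusted p = 0.00225), rose. With slide as a fixed block Furin was not called, at 0.60 (adjusted p = 0.0131). Timp3, the inhibitor of the TNF-shedding protease, fell, with a difference of -1.18 (adjusted p = 0.000128). The protease itself, Adam17, was not called, at 0.46 (adjusted p = 0.0243), and was named after its value was seen. Of 7 proteins first known as induced by TNF and their relatives, 5 were higher and none was lower, among them Tnfaip2 (2.62, adjusted p = 7.01e-05), Tnfaip8l2 (1.95, adjusted p = 2.71e-06), Tnfaip8l1 (1.89, adjusted p = 2.10e-06) and the hyaluronan-binding Tnfaip6 (1.39, adjusted p = 0.00144). Of the 5 superfamily relatives that the naming rule does not reach, 3 were tested, Relt was higher at 1.26 (adjusted p = 0.000544) and none was lower.

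Only 5 of the 20 increases were called when each array was centred on its median in place of loess. They were those of Tnfrsf1b, Ltb, Tnfsf14, Tnfrsf18 and Tnfrsf13b. That scaling moved the median over all genes from 0.02 to 0.41, left 408 genes higher and 8 lower in place of 3122 and 2244, and raised the share of calls that were upwards from 58.2% to 98.1%. The members' median under it was 1.14. All 20 increases and Tnfrsf12a kept their direction under the 25 alternatives that could be computed, and the sizes spread most for dim members, Tnfsf8 differing by up to 5.07 where no offset was added to the background-corrected signal.

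**Figure D5:**
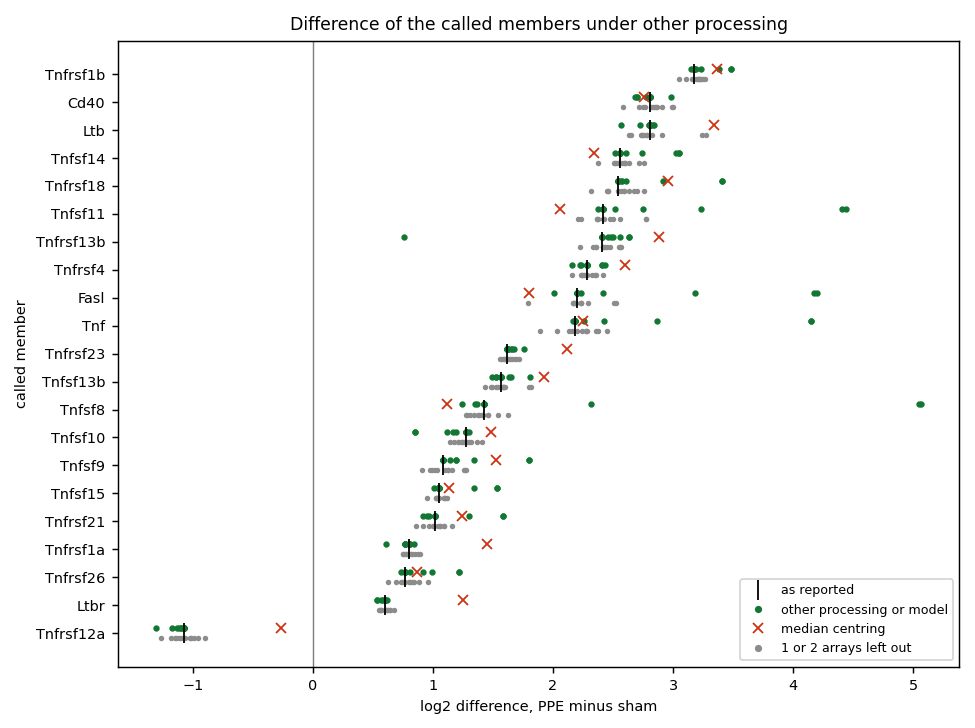
Difference between PPE and sham (horizontal axis, log2) of each of the 21 called members (vertical axis) as reported (bar), under other processing or models (green points), with median centring (red cross) and with 1 or 2 arrays left out (grey points). All points of the 20 higher members lie above 0 and all points of Tnfrsf12a below 0, and the points far to the right at Tnfsf8, Tnfsf11, Fasl and Tnf come from log ratios without an offset.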

How the data were processed

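Each 2-colour Agilent array held 500 ng of aortic RNA from 1 mouse in red (Cy5) and universal mouse reference RNA in green (Cy3), with no dye swap. Per the file headers, the authors extracted the spots with Agilent Feature Extraction 10.7.3.1. Signals and local backgrounds were deposited as linear intensity values. The authors' LogRatio column gives log10 of the red to green ratio, and their series matrix holds log2 ratios, which equalled red over green signals on 100% of spots (tolerance 1e-04).

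Values were computed in R 4.3.3 with limma 3.58.1 from mean signals by normexp background correction (offset 50, over all spots) and loess within arrays with control spots at weight 0. The offset pulls dim probes towards 0. Between 176 and 331 outlier spots per array were left out, and no spot was saturated. Spots of a probe were averaged, probes above background on fewer than 5 arrays were left out, and a gene is its brightest tested probe. Groups were compared by a two-sided, unpaired limma fit with Benjamini-Hochberg adjustment over all 22520 genes, at the false discovery rate of the study, whose own test (SAM) was an alternative. The number of arrays limits the precision. The p-values set a difference against the spread between arrays of a group, in which mouse, array, slide and scan day are mixed.

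Members and gene lists were chosen with earlier results of these data known. Named were all members, with every array for those called, and per pathway list up to 4 increases and 4 decreases. Fits without sham 3 and PPE 2, or without sham 5 and PPE 5, were added after the data were seen. Probe positions are those of the files (mm9), on which no exon or UTR annotation was used here. Replicate numbers did not pair the samples. Model code was tested on simulated data.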

Additional observations from a re-analysis of the deposited data

Results flagged for a closer look

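Levels were searched for a mouse that stood apart from the rest of its group, by the share of the group's range that lies between it and its nearest neighbour (above 0.71 for 5 arrays). This was the case in 6 of 100 groups tested, and chance gives about 1 in 20. Ltb was far higher on sham 3 than on the other sham arrays (0.88 against at most -1.23, a share of 0.825). Tnfrsf1b was higher on PPE 1 than on the other PPE arrays (3.37 against at most 2.75, a share of 0.844). Tnfsf13b was lower on sham 2 than on the other sham arrays (0.17 against at least 0.51, a share of 0.935). The B cell marker score was highest on sham 3 (0.92, a share of 0.790) and on PPE 2 (1.86, a share of 0.719). The smooth muscle marker score was highest on PPE 2 in its group (2.85 against at most 1.90, a share of 0.771). The part of these arrays in the results was not tested beyond leaving each of them out.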

How the results depend on the processing

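Counts within 1.5 times those reported are not listed. Of the 52 genes named by the rule, 14 were members not called as reported, which had no call to lose. Among the rest, 30 lost their call with median centring and at most 3 under any other alternative. With median centring, 5 members were higher and 0 lower, as were 3 and 0 signalling genes and 408 and 8 of all genes. The scanner's log ratios and the series matrix each gave 3 signalling genes lower, scan day as a block gave 2, and slide as a random block gave 2 members and 3 signalling genes lower. SAM called 4892 genes higher, 2 members lower and 3 signalling genes lower, and Lta as higher. With only genes above background on all 10 arrays, 11 members were higher of 19 tested, since fewer were tested, and with no filter 0 were lower.

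Leaving out each array in turn gave 18 to 20 members higher and 0 to 2 lower, 31 to 35 signalling genes higher and 1 to 2 lower, and 2514 to 3615 genes higher and 1752 to 2348 lower. Without sham 3 and PPE 2, 0 members and 2 signalling genes were lower, and without sham 5 and PPE 5, 2 members were lower. Both were chosen after seeing the data. Replicate numbers did not pair the samples (correlations of same-numbered arrays from -0.30 to 0.52, and 1 of 5 samples closest to its own number). With the replicate block 18 members were higher in place of 20.

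The sign turned only in uncalled members: Tnfrsf11b with the log ratios and series matrix (-0.21 each), offset 10 (-0.0083), scan day as a block (-0.084), without sham 3 and PPE 2 (-0.29) and when single arrays were left out (-0.14 to 0.12), Tnfrsf14 with slide as a fixed block (-0.011), without sham 3 and PPE 2 (-0.031) and when single arrays were left out (-0.036 to 0.18), and, with median centring, Tnfrsf10b (0.36), Tnfrsf17 (0.024) and Tnfsf12 (0.33). The causes were not tested. Dim members such as Tnfsf8, Tnfsf11 and Fasl limit what sham levels can show.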
